A study of Mus musculus with 46 samples.

Results

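Tex19.1 and 9 other mouse genes of the germline, Tex19.2, Dazl, Ddx4, Mael, Sycp1, Sycp3, Stra8, Tdrd1 and Piwil2, were examined in the cecum and liver of mice fed dietary fiber. They are 10 of the 20887 genes that the array probes could be matched to by name, and each had exactly 1 probe. The set was chosen by the pattern of Tex19.1, whose signal in cecum was already known to be higher on the fiber diets, so the levels of Tex19.1 in cecum are a description and carry no test. The question was whether the other germline genes shared that rise. All mice were male C57Bl/6, 20 weeks of age by the labels, and had eaten their diet for 8 weeks. The diets were HFD, a high fat diet; HFD + inulin (the inulin diet), in which inulin, a fermentable plant fructan, replaced part of the starch and cellulose; HFD + inul PB (the ester diet), in which inulin esterified with propionate, mixed with inulin esterified with butyrate, took that place; and LFD, a low fat diet. The cecum had 5 arrays each of LFD and the ester diet and 6 each of HFD and the inulin diet, and the liver had 6 of every diet, 46 in all. The arrays were Agilent one-colour oligonucleotide arrays, on which brightness measures transcript abundance, and levels are given as log2 of the normalised signal. The scanner software marks each spot as well above background or not, and a gene is called detected on an array where it was. Between 48.4% and 55.9% of probes were detected on a cecum array and between 46.4% and 51.7% on a liver array.

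Germ cells silence retrotransposons, mobile DNA that copies itself through RNA, and the genes that do so are normally shut in other tissues, in large part by methylation of their promoters. Tex19.1 and its neighbour and paralog Tex19.2 are mammal-specific genes of germ cells, pluripotent cells and placenta, and the Tex19.1 protein binds the ubiquitin ligase Ubr2 and restrains LINE-1 mobilisation. Dazl is an RNA-binding protein of germ cells, Ddx4 the germ cell RNA helicase (Vasa), and Mael, Tdrd1 and Piwil2 belong to the piRNA pathway, which uses small RNAs to find transposon transcripts. Sycp1 and Sycp3 build the synaptonemal complex between paired chromosomes in meiosis, and Stra8 is the retinoic acid-induced gene needed to enter it.

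The promoters of the Tex19 pair are shown because CpG sites, the bases that carry DNA methylation, differ in number between them. Each sequence is the 250 bases before the gene start in the RefSeq promoter table of mouse build GRCm38.p6, printed in the direction of transcription, with each CpG in capitals. The Tex19.1 window lies at chr11:121145893-121146142 on the plus strand and the Tex19.2 window at chr11:121118678-121118927 on the minus strand.
Tex19.1: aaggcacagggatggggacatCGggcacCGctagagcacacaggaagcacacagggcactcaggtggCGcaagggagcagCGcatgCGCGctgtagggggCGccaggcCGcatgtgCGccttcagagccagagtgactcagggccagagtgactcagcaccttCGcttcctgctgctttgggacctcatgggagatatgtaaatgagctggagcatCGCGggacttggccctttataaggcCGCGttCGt
Tex19.2: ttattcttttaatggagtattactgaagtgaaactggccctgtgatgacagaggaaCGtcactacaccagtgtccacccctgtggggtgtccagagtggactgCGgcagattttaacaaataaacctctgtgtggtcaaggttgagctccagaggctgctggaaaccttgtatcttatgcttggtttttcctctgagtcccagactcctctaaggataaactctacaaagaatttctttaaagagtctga
The Tex19.1 window held 15 CpG sites, more than 72.7% of the 32851 RefSeq windows of that length had, and the Tex19.2 window held 2, where the median over all windows was 6. The hexamer TCCCGC, searched on both strands because it is the core that E2F proteins bind, stood once before Tex19.1, starting 33 bases before the start, and was present in 16.9% of all windows. It was also present in the windows of Ddx4, Mael and Sycp3, and not in those of Tex19.2, Dazl, Sycp1, Stra8 and Tdrd1. The hexamer CACGTG, an E-box that reads the same on both strands, was in neither Tex19 window, in windows of Ddx4, Mael, Sycp1, Sycp3 and Tdrd1, and in 6.02% of all windows. The windows of Dazl held 20 CpG sites, Ddx4 31, Mael 18, Sycp1 17, Sycp3 12 and Stra8 5, and the 3 Tdrd1 windows between 3 and 22. Methylation was not measured on these arrays, and a match is a description of letters only.

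In cecum the signal of Tex19.1 (probe A_51_P245533) was higher on both fiber diets than on every HFD array. On HFD the levels were 7.38, 5.54, 6.69, 5.40, 3.89 and 6.09, and the probe was detected on 3 of 6 arrays. On the inulin diet they were 9.50, 8.29, 9.74, 10.05, 10.55 and 9.43, detected on 6 of 6. On the ester diet they were 11.09, 11.35, 10.57, 10.65 and 11.09, detected on 5 of 5. On LFD they were 6.72, 5.84, 7.48, 9.32 and 7.27, also detected on 5 of 5. The means were 5.83 ± 1.20 on HFD (SD, n = 6), 9.59 ± 0.76 on the inulin diet (SD, n = 6), 10.95 ± 0.33 on the ester diet (SD, n = 5) and 7.33 ± 1.28 on LFD (SD, n = 5). The ranges of HFD and LFD overlapped, and 1 LFD array, at 9.32, lay above the lowest inulin diet array. The 2 groups without inulin varied most, and the ester diet arrays lay closest together.

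**Figure D1:**
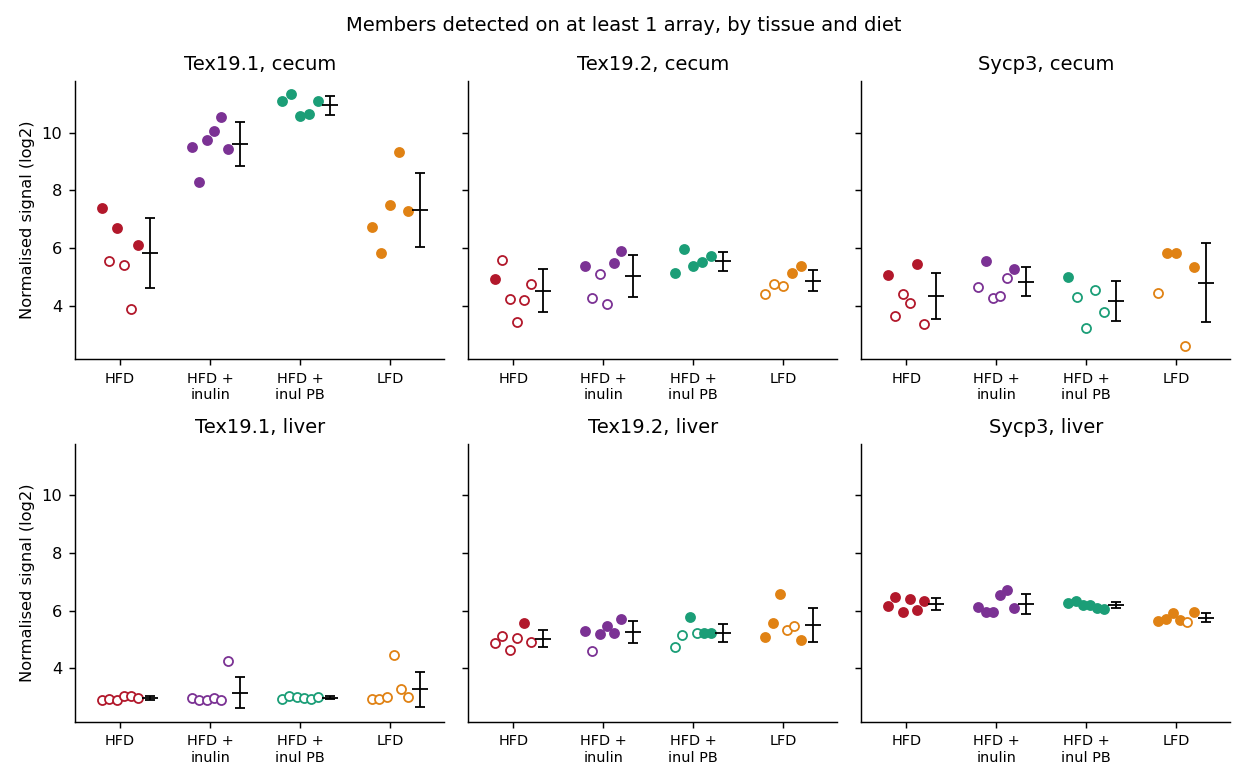
Normalised signal (log2) of Tex19.1, Tex19.2 and Sycp3 on each cecum array (top) and liver array (bottom) by diet, filled where the spot was well above background and open where it was not, with the mean and SD beside the points. Tex19.1 in cecum lay between 8.29 and 11.35 on the fiber diets and between 3.89 and 7.38 on HFD, and it was open on every liver array.

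As differences of log2 means, Tex19.1 stood 3.76 above HFD on the inulin diet and 5.12 above on the ester diet. These were the largest rises of all 55681 probes in both comparisons, which is what Tex19.1 was chosen for. No fold is given, since the probe was not above background on 3 of the 6 HFD arrays, and normexp background correction lowered the differences to 2.72 and 4.05. LFD stood 1.49 above HFD, and this value fell to 1.00 without the single high LFD array, replicate 4. The mean of the fiber diets stood 2.95 above LFD. The signal on the ester diet exceeded that on the inulin diet by 1.36 ± 0.57 (SE), with every ester diet array above every inulin diet array, and with the background left unsubtracted the difference was the same, 1.36. This too is a description, since the gene was chosen for its levels on these arrays.

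The cecum arrays lay on 3 slides, each of which held all 4 diets. Within slides Tex19.1 was higher on the inulin diet than on HFD by 2.43, 3.85 and 5.00, and higher on the ester diet by 4.76, 4.53 and 5.88. The difference of LFD from HFD was -0.18, 1.44 and 3.30 on the same slides, so that its direction was not the same on all of them. The ester diet exceeded the inulin diet by 2.32, 0.68 and 0.88. Whole cecum was measured, in which more cells that express a gene and more RNA per cell cannot be told apart.

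In liver Tex19.1 was not well above background on any of 24 arrays, and its levels ran from 2.90 to 4.48. Both tissues were then normalised together and the liver was set at the lowest signal of any detected probe. The cecum signal was at least 18.7-fold higher than liver on the inulin diet, at least 44.9-fold on the ester diet and at least 4.13-fold on LFD. On HFD the same calculation gave 1.41-fold, which is not a lower bound, since the probe was not detected on 3 of the cecum arrays. No slide held arrays of both tissues. No liver contrast of Tex19.1 was called by limma, and the 5 adjusted P ran from 0.835 to 1. With the probe not above background on any liver array, these tests cannot show whether the gene responded to diet there.

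Tex19.2, the paralog that lies next to Tex19.1, was dim in both tissues, and only the ester diet separated partly from HFD in cecum. Its probe, A_51_P503736, read 4.92, 5.59, 4.25, 3.42, 4.21 and 4.75 on HFD in cecum, with 1 of 6 arrays detected. On the inulin diet it read 5.37, 4.28, 5.11, 4.05, 5.47 and 5.88, with 3 of 6 detected. On the ester diet it read 5.12, 5.97, 5.37, 5.51 and 5.72, with 5 of 5 detected, and on LFD 4.41, 4.76, 4.69, 5.13 and 5.36, with 2 of 5. The second HFD array reached into the ester diet range, so the groups overlapped. The difference of the ester diet from HFD was 1.01 ± 0.34 (SE, 95% interval 0.30 to 1.73). This was called by the threshold used throughout for single genes, a fold over 1.5 with an unadjusted P under 0.01 in limma, against an HFD group in which 5 of 6 arrays were not above background. It did not pass adjustment over all probes (adjusted P = 0.082). The other differences were not called: the inulin diet stood 0.50 ± 0.33 (SE) above HFD (limma, adjusted P = 0.521), LFD 0.35 ± 0.34 above HFD (adjusted P = 0.869), and the ester diet 0.51 ± 0.34 above the inulin diet (adjusted P = 0.858).

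The Tex19.2 call was a narrow one. It was lost without any 1 of 7 of the 22 arrays, HFD replicates 3, 4 and 5 and ester diet replicates 2 to 5, with differences of 0.79 to 1.23 over all 22 omissions. The difference was 0.36 to 0.45 under normexp, without background correction and in the deposited processed values. There only the fold limit was missed. The unadjusted P in limma was 0.00106, 0.00139 and 0.00146 in that order, beside 0.00799 in the main fit. Within slides the difference was 0.29, 1.54 and 1.13. Across the 22 cecum arrays the levels of Tex19.2 and Tex19.1 had a Pearson r of 0.59, a description over arrays that share diets and slides. The paralogs resemble each other in sequence, and whether either probe also binds the other transcript was not tested. In liver, where the Tex19.1 probe gave no signal above background, the Tex19.2 probe was detected on 13 of 24 arrays, 1 on HFD, 5 on the inulin diet, 3 on the ester diet and 4 on LFD. Its liver levels lay between 4.61 and 6.59 with all diets overlapping, and LFD against HFD, at 0.47 ± 0.23 (SE), was not called (limma, adjusted P = 0.747).

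Sycp3, the lateral element protein of the synaptonemal complex, was not called in cecum and was detected on 23 of 24 liver arrays, more than any other member. In cecum its probe, A_55_P2018407, was detected on 8 of 22 arrays, and the ranges of all diets overlapped, 3.37 to 5.45 on HFD, 4.28 to 5.55 on the inulin diet, 3.23 to 5.01 on the ester diet and 2.59 to 5.84 on LFD. The difference from HFD was 0.50 on the inulin diet (95% interval -0.51 to 1.52) and -0.17 on the ester diet (95% interval -1.23 to 0.90), neither called by limma. Both intervals admit a change of more than 1.5-fold. They rest mostly on spots not above background, with 2 of 6 HFD, 2 of 6 inulin diet and 1 of 5 ester diet arrays detected. They therefore do not bound the change of the gene itself.

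In liver the mean of Sycp3 was lowest on LFD. It read 6.18, 6.49, 5.97, 6.40, 6.02 and 6.34 on HFD, and 6.12, 5.96, 5.95, 6.56, 6.73 and 6.08 on the inulin diet. It read 6.28, 6.32, 6.20, 6.21, 6.10 and 6.06 on the ester diet, and 5.65, 5.72, 5.91, 5.68, 5.60 and 5.97 on LFD. All LFD arrays lay below all ester diet arrays, while the highest LFD array equalled the lowest HFD array at 5.97 and was above the lowest inulin diet array. LFD differed from HFD by -0.48 ± 0.12 (SE, limma, adjusted P = 0.281), a 1.39-fold difference that stayed under the 1.5-fold threshold and did not pass adjustment. The mean of the fiber diets stood 0.46 ± 0.11 (SE) above LFD (limma, adjusted P = 0.153), and was likewise not called. The fiber diets themselves stood 0.00 (the inulin diet) and -0.04 (the ester diet) from HFD, with 95% intervals of -0.26 to 0.26 and -0.30 to 0.22. Within the 3 liver slides LFD lay below HFD by -0.65, -0.39 and -0.39 as signed differences.

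The other 7 members were not detected on any of the 46 arrays. Dazl, Ddx4, Mael, Sycp1, Stra8, Tdrd1 and Piwil2 together gave 322 measurements, between 2.78 and 5.12 with a median of 3.07, and 289 of them were under 3.5. The lowest signal of any detected probe lay between 4.55 and 5.45 on a cecum array and between 4.55 and 5.30 on a liver array. On the fiber diets in cecum Dazl read 3.00 to 3.09 and Ddx4 3.09 to 3.20, and on HFD they read 2.80 to 3.09 and 2.83 to 3.21. Tdrd1, a scaffold of the piRNA pathway, gave the highest readings of the 7, 5.12 on 1 inulin diet cecum array and 5.06 on 1 ester diet liver array, without being marked above background there. No fold is given for these genes, since both sides of every comparison have only an upper bound.

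**Figure D2:**
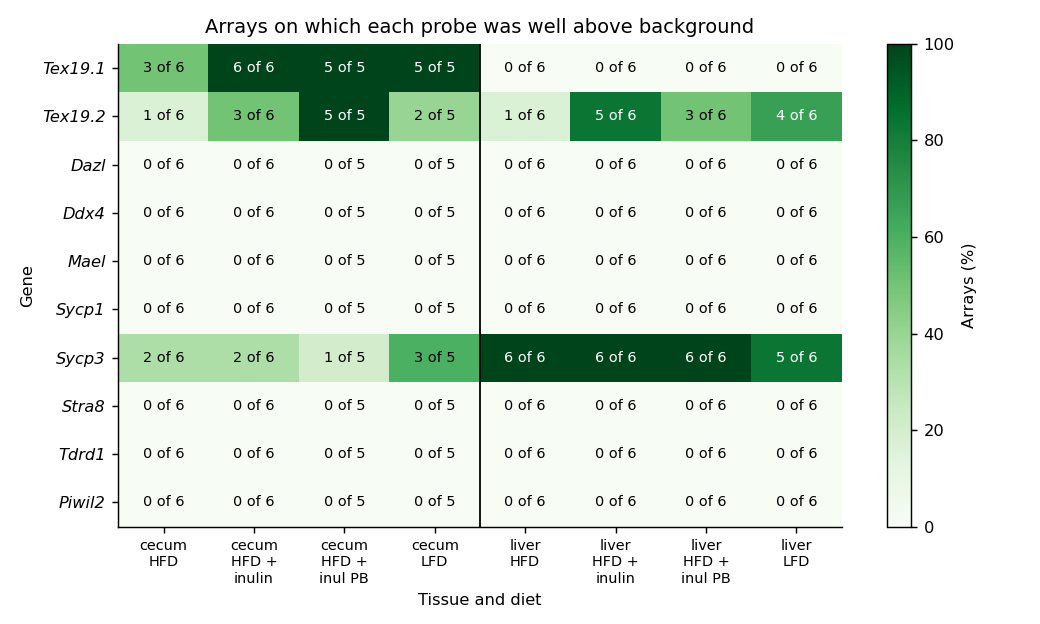
Number of arrays in each tissue and diet on which the probe of each gene was well above background, coloured by the percentage of arrays. Only Tex19.1, Tex19.2 and Sycp3 were detected on any array, and the other 7 genes stood at 0 in all groups.

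Of the 9 members other than Tex19.1, 1, Tex19.2, was called in cecum, on the ester diet against HFD, where 4.69% of all probes were called. None of the 9 was called for the inulin diet against HFD, where 2.47% of all probes were, for LFD against HFD (0.639%), for the ester diet against the inulin diet (0.803%) or for both fiber diets, averaged, against LFD (1.49%). With limma at an unadjusted P under 0.05 and no fold limit, the numbers were 1 for the ester diet, 0 for the inulin diet, 1 for LFD (Ddx4), 1 for the ester diet against the inulin diet (Sycp1) and 0 for the fiber diets against LFD. Ddx4 and Sycp1 were below background on all these arrays. At an adjusted P under 0.05 none of the 9 passed in any cecum contrast, in which 1.58% (the inulin diet), 7.02% (the ester diet), 0% (LFD), 0.0216% (the ester diet against the inulin diet) and 1.12% (fiber diets against LFD) of all probes did. The median difference of the 9 was 0.02 on the inulin diet and 0.04 on the ester diet, beside 0.00928 and 0.0015 for all probes. With 7 of the 9 below background on every array, this median is set by undetected probes and says nothing of the genes themselves.

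In liver none of the 10 members was called in any contrast. Of the 10, 8 were not detected on any liver array, so for those 8 the absence of a call says nothing of the gene itself. All probes were called at 0.399% for the inulin diet, 0.289% for the ester diet, 0.717% for LFD, 0.198% for the ester diet against the inulin diet and 0.774% for the fiber diets against LFD. After adjustment the shares were 0%, 0%, 0.0287%, 0% and 0.0593% in the same order, with no member among them. At an unadjusted P under 0.05 Sycp3 was the 1 member found by limma, for LFD against HFD and for the fiber diets against LFD. A model of all 46 arrays asked whether the response to fiber, the mean of both fiber diets minus HFD, differed between cecum and liver. For Tex19.2 the cecal response exceeded the hepatic one by 0.50 ± 0.34 (SE, limma, adjusted P = 0.563) and for Sycp3 by 0.14 ± 0.43 (adjusted P = 0.932), and none of the 9 had an unadjusted P under 0.05. The other 7 of the 9 were below background on every array of both tissues, so the model could not show a response of theirs. For Tex19.1 the same difference was 4.23, given as a description.

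Beyond the members, 55 genes of the piRNA pathway, of meiosis and of early germ cells were listed, of which 53 had a probe. In cecum 37 of the 53 were detected on at least 1 array, 14 on every array and 16 on none, the last including Mov10l1, Asz1 and Henmt1 of the piRNA pathway, Spo11 and Stag3 of meiosis, and Nanos2 and Dppa3 of early germ cells. On the inulin diet 2 were called higher and 1 lower than on HFD, and on the ester diet 3 higher and 1 lower, shares that stand beside the 2.47% and 4.69% of all probes. The median difference of the 53 was 0.03 and -0.01. The inulin diet count rose to 6 without HFD replicate 3 and to 5 without HFD replicate 5. On LFD 1 was called, Dmc1, a meiotic recombinase that was detected on 2 of 22 arrays, and the LFD count was 0 without LFD replicate 1 or 4 and 4 without LFD replicate 2. In liver none of the 53 was called against HFD.

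Exd1, a partner of the piRNA machinery, was the 1 piRNA pathway gene called, and it was detected on every cecum array. Its levels ran from 5.74 to 6.75 on HFD (median 6.12), 6.69 to 7.95 on the inulin diet (median 7.46), 7.33 to 7.96 on the ester diet and 6.00 to 7.46 on LFD. All ester diet arrays were above all HFD arrays, while the inulin diet overlapped HFD slightly. Exd1 rose by 1.18 ± 0.26 (SE) on the inulin diet (limma, adjusted P = 0.0256) and by 1.45 ± 0.27 on the ester diet (adjusted P = 0.00318), and LFD stood 0.67 ± 0.27 above HFD without being called (adjusted P = 0.839).

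Rec8, the meiotic cohesin subunit, ran from 9.55 to 10.34 on HFD (median 10.04), 9.92 to 11.39 on the inulin diet (median 10.67), 10.38 to 11.05 on the ester diet and 9.53 to 10.39 on LFD. It rose by 0.70 ± 0.20 (SE) on the inulin diet (limma, adjusted P = 0.0911) and by 0.83 ± 0.21 on the ester diet (adjusted P = 0.0227). The first of these calls was lost without inulin diet replicate 5, at 0.55. Both early germ cell genes that were called also have roles outside the germline. Prdm1 (Blimp1), a transcription factor of germ cell specification that also acts in plasma cells and gut epithelium, rose by 0.72 ± 0.17 (SE) on the ester diet (limma, adjusted P = 0.0152). Kit, the stem cell factor receptor of germ cells, mast cells and the pacemaker cells of gut muscle, fell by 0.61 on both fiber diets (limma, adjusted P = 0.0476 and 0.0238). Kit was close to the fold limit: both its calls were lost without HFD replicate 2 (-0.55 and -0.56) or HFD replicate 4 (-0.58 on both), its ester diet call with 75th percentile scaling (-0.57), and the inulin diet call also without inulin diet replicate 1 (-0.58) or 5 (-0.57).

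**Figure D3:**
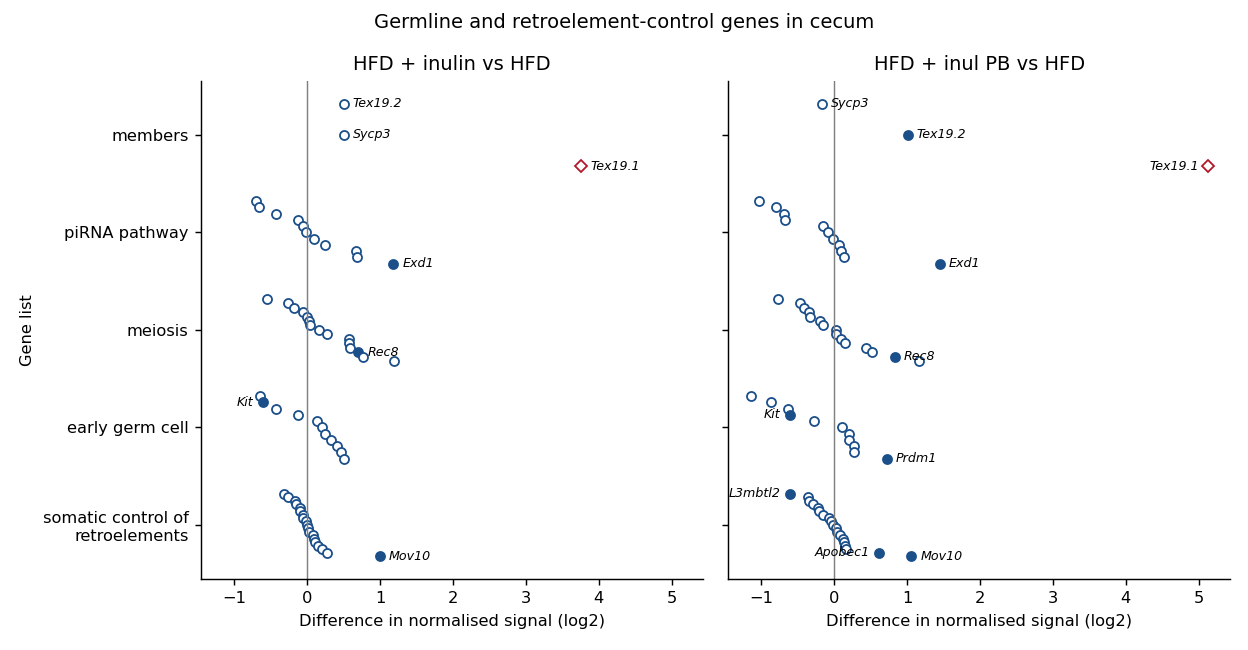
Difference in normalised signal (log2) from HFD in cecum on HFD + inulin (left) and HFD + inul PB (right) of the genes of each list that were detected on at least 1 cecum array; filled circles were called by fold and P, open circles were not, and the red diamond is Tex19.1, which carries no test. Tex19.1 stood at 3.76 and 5.12, and the next highest called genes of the germline and retroelement lists drawn, Exd1 and Mov10, at 1.18 and 1.00 on the left and 1.45 and 1.06 on the right.

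The somatic genes that silence or restrain retroelements were detected on all cecum arrays, 19 of 19. On the inulin diet 1 of the 19 was called higher and none lower, and on the ester diet 2 higher and 1 lower, beside 2.47% and 4.69% of all probes called in either direction. The shares of all probes include undetected ones, while all 19 were detected, so the 19 and all probes are unlike in this. Mov10, an RNA helicase that restrains LINE-1 and retroviruses, was 10.60 to 11.97 on HFD (median 11.45), 12.10 to 12.75 on the inulin diet (median 12.30), 12.14 to 12.69 on the ester diet and 11.31 to 11.52 on LFD. Every fiber array was above every HFD and LFD array. Mov10 rose by 1.00 ± 0.17 (SE) on the inulin diet (limma, adjusted P = 0.00656) and 1.06 ± 0.18 on the ester diet (adjusted P = 0.00171), and LFD stood 0.08 ± 0.18 from HFD (adjusted P = 0.959). Apobec1, a cytidine deaminase that edits apolipoprotein B RNA, rose by 0.62 ± 0.15 on the ester diet (limma, adjusted P = 0.015), a call lost without HFD replicate 5 (0.55) or ester diet replicate 5 (0.57).

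L3mbtl2, a Polycomb-type repressor that acts on germline genes, fell by 0.61 on the ester diet (limma, adjusted P = 0.00557), and was within the fold limit without HFD replicate 4 (-0.55) or 6 (-0.57) or ester diet replicate 2 (-0.56), and with 75th percentile scaling (-0.58) or quantile normalisation (-0.56). The DNA methyltransferase genes were not called. Dnmt1 stood 0.08 and -0.04 from HFD on the inulin diet and the ester diet, Dnmt3a 0.01 and 0.12, and Dnmt3b -0.02 and 0.08. Uhrf1, which recruits Dnmt1, stood at -0.05 and -0.36, E2f6 at -0.10 and -0.15, and Ubr2, the binding partner of the Tex19.1 protein, at 0.15 on both. None of these was called. In liver none of the 19 was called against HFD.

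Of 10 genes of the pluripotent state, where Tex19.1 is also active, 7 were detected on at least 1 cecum array. None was called on the ester diet, 2 on the inulin diet and 1 on LFD, where 4.69%, 2.47% and 0.639% of all probes were. On the inulin diet Dppa5a was lower by -0.92 as a signed difference (limma, adjusted P = 0.094), and Pou5f1 was called higher at 0.62 although it was not detected on any of the 22 arrays. On LFD Dppa4 was called at 1.34 with 2 of 22 arrays detected. Under normexp, without background correction and in the deposited values these 3 calls were lost, as were those of Dmc1, Kit and L3mbtl2, and the Pou5f1 and Dppa4 calls were also lost with 75th percentile scaling (0.78 and 1.25), that of Pou5f1 with quantile normalisation too (0.57). Of 10 genes of late sperm development, listed as markers of spermatids, 5 were detected on any cecum array and none was called against HFD in either tissue.

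Among the genes compared, those with a cecal pattern most like that of Tex19.1 were not of the germline lists. Those lists do not hold every gene with a role in germ cells. Pearson r was taken over the 22 cecum arrays against 13759 named probes, 1 a gene, detected on every array of at least 1 diet. It is a description of arrays that share diets and slides. Of the other members only Tex19.2 met that detection limit, through the ester diet alone, where it was highest, so the rest could not be among these genes. Nor could the 16 listed germline genes that were detected on no cecum array. Ttll9, a member of the tubulin tyrosine ligase-like family, came first with r = 0.98, and r was 0.90 after the diet means were removed. Its levels were 5.78 to 7.82 on HFD (median 7.28), 9.54 to 11.19 on the inulin diet (median 10.51), 11.01 to 11.51 on the ester diet and 7.07 to 10.57 on LFD. Its highest LFD array, at 10.57, and its lowest HFD array, at 5.78, were the same arrays that were highest and lowest for Tex19.1. After Ttll9 came Sat2 (r = 0.96), Pisd-ps1 (0.95), the acetylcholine receptor chaperone gene Tmem35a (0.94) and Mcoln1, a lysosomal cation channel (0.94). The lowest r belonged to Slc41a2 and Slc12a8 (-0.94 each), Creb3l4 and Rab27b (-0.93 each) and Agr2 (-0.92), the last a protein disulfide isomerase of goblet cells. Of the genes described above, r with Tex19.1 was 0.83 for Exd1, 0.82 for Rec8, 0.78 for Prdm1, 0.72 for Mov10 and 0.70 for Apobec1. It was -0.77 for Kit and -0.67 for L3mbtl2. Among the members other than Tex19.2, r with Tex19.1 lay between -0.31 (Stra8) and 0.30 (Tdrd1), at levels below background, with Sycp3 at -0.20.

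**Figure D4:**
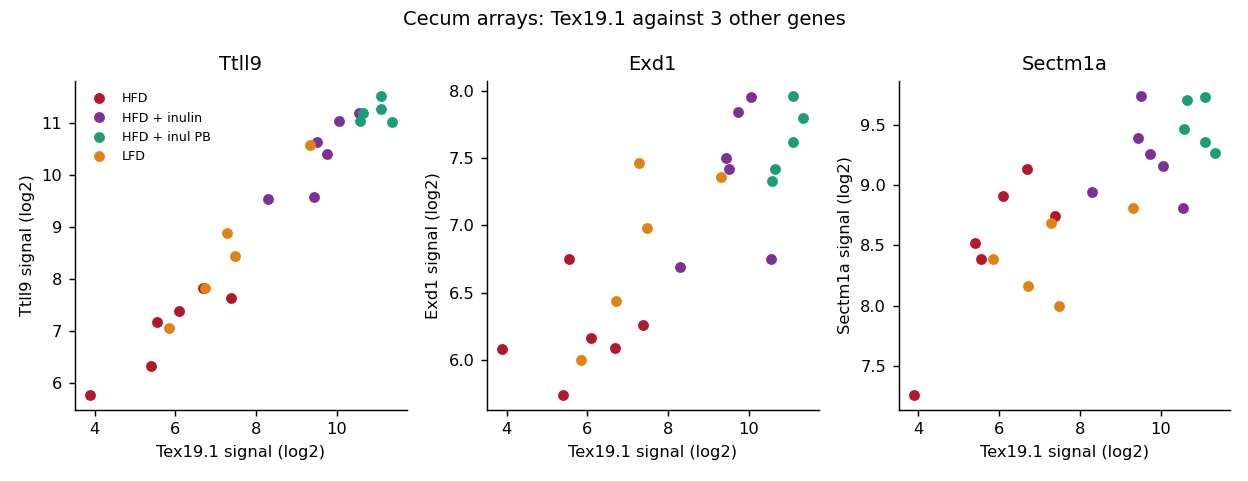
Normalised signal (log2) of Ttll9, Exd1 and Sectm1a against that of Tex19.1 on the 22 cecum arrays, coloured by diet. Pearson r was 0.98 for Ttll9, 0.83 for Exd1 and 0.80 for Sectm1a.

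In the RefSeq order on chromosome 11, Tex19.2, Gm11793 and Sectm1a stand on one side of Tex19.1 and Uts2r, Gm11790 and Ogfod3 on the other, and the Gm entries had no probe. Sectm1a, a secreted and transmembrane protein, was detected on all 22 cecum arrays and on 1 of 24 liver arrays. It ran from 7.26 to 9.13 on HFD (median 8.63), 8.81 to 9.74 on the inulin diet (median 9.21), 9.27 to 9.73 on the ester diet and 8.00 to 8.81 on LFD. It rose by 1.02 ± 0.25 (SE) on the ester diet (limma, adjusted P = 0.0188) and by 0.73 ± 0.24 on the inulin diet (limma, adjusted P = 0.139), the second of which was lost without HFD replicate 2, 4 or 5 or inulin diet replicate 1, 3, 4 or 6 (differences of 0.48 to 0.74). It was also lost with 75th percentile scaling (0.71), quantile normalisation (0.72) or cyclic loess over both tissues (0.68), and with slide as a block, where the difference stayed at 0.73. Uts2r, the urotensin receptor, stood 0.18 and 0.06 from HFD on the inulin diet and the ester diet, and Ogfod3 -0.11 and -0.10, and neither was called in any contrast.

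Some markers of other cell types in the cecal samples were also called against HFD, by fold and unadjusted P. Of all probes 2.47% were called on the inulin diet, 4.69% on the ester diet and 0.639% on LFD. Of 6 adipocyte markers (Adipoq, Plin1, Fabp4, Cfd, Lep and Retn) 5 were called lower on the ester diet. Of these, 2 passed adjustment, Fabp4 and Plin1 (limma, adjusted P = 0.04 and 0.0486). The summed signal of the 6 ran from 12343 to 159613 on HFD, 1754 to 86911 on the inulin diet, 1690 to 18498 on the ester diet and 2221 to 118217 on LFD. Of 12 epithelial markers, all detected on every array, Muc2 was lower and Slc26a3 higher on both fiber diets, and Tff3 lower on the ester diet, with sums that overlapped in all diets. Lgr5 (-0.62) and Top2a (-0.68), of 10 measured stem and proliferation genes, were called lower on the ester diet. Of 7 B and plasma cell genes 1 was called lower on the inulin diet and 2 on the ester diet, and of 4 T cell genes Cd8a was lower on both. The B cell call on the inulin diet, Cd79b, did not pass adjustment (limma, adjusted P = 0.105). On LFD 2 B cell genes (Cd79b and Ms4a1) and 2 T cell genes (Cd3g and Cd8a) were also called lower than on HFD. None of these LFD calls passed adjustment (limma, adjusted P from 0.663 to 0.839), and no probe did in that contrast. None of 6 smooth muscle genes was called. The summed signal of 6 hepatocyte genes reached 29578 on 1 HFD cecum array, where the median HFD array gave 5097. Of these genes only Tat was called, higher on the inulin diet (0.72, limma, adjusted P = 0.0302) and the ester diet (0.69, adjusted P = 0.0183). The median difference of the 6 went the other way, -0.55 on the inulin diet and -0.27 on the ester diet, and 2 of the 6 were detected on every cecum array. The part of these shifts in the values of Tex19.1, Tex19.2, Exd1, Rec8, Prdm1, Kit and Mov10 was not tested.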

How the data were processed

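Cecum and liver arrays were grouped by tissue, diet and replicate number from the labels. For each array the authors deposited scanner output, in which the intensity of each of 62976 spots is given on a linear scale; the processed signal used here is background-subtracted and not normalised between arrays. The authors also deposited log2 values normalised by cyclic loess, used as an alternative only. Control spots and outlier spots were left out. Log2 processed signals were then brought to one scale by cyclic loess within each tissue (span 0.7), spots of one probe were averaged, and all diets of a tissue were fitted together in limma 3.58.1 (R 4.3.3, data.table version 1.17.8), with Benjamini-Hochberg adjustment over 55681 probes. A gene was called at a fold over 1.5 with an unadjusted P under 0.01, and adjusted P were read at 0.05. The scripts were tested on simulated data.

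Probe names came from RefSeq accessions matched to build GRCm38.p6 (27509 probes), and promoter windows were those RefSeq gives for that build; Piwil2 has none, the other members do. The number of arrays limits the precision, and the labels do not pair cecum with liver. Diets shared 6 slides, and within-slide values are given for members. Each slide held a single tissue, so a difference in level between tissues cannot be told apart from one between slides.

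No test is read for Tex19.1 in cecum, including that between the fiber diets, for which one had been planned. The members and gene lists were chosen with earlier results of these data known. Named genes were the 10 members, the called genes of each list against HFD (at most 4 a list, lowest P), the 5 highest and 5 lowest correlates of Tex19.1, and its 3 RefSeq neighbours on each side; the methyltransferases, Uhrf1, E2f6 and Ubr2 were added after their values were seen. Alternatives were 75th percentile scaling, quantile normalisation, cyclic loess over both tissues, normexp with an offset of 50 on the median spot and background signals, no background correction, the deposited log2 values, outlier spots kept, a detection filter, slide and replicate number as blocks, and leaving out each array. Counts over the germline lists and values of listed genes and of Sectm1a were put through them as alternatives chosen after seeing the data.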

Additional observations from a re-analysis of the deposited data

Results flagged for a closer look

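In liver, LFD replicate 3 gave a Tex19.2 level of 6.59, far from the other 5 LFD arrays, of which the nearest was 5.58. Its gap to that array was 0.631 of the whole range of the group, just past the limit of Dixon's test for 6 samples. It was the 1 array set apart among 20 gene and diet groups examined, and chance sets apart about 1 in 20.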

How the results depend on the processing

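The rise of Tex19.1 in cecum kept its direction under every alternative, and normexp background correction lowered it, to 2.72 on the inulin diet and 4.05 on the ester diet against HFD. The Tex19.1 difference between the ester and inulin diets was 1.33 under normexp and 1.36 without background correction and in the deposited values, where it crossed the call threshold, which is not read for a gene chosen on these arrays. Under the same 3 alternatives Tex19.2 on the ester diet stood at 0.36, 0.45 and 0.44 and was not called, so that 0 of the 9 other members were called, and 0 genes of the germline lists were called on LFD, as also with the detection filter. For Tex19.2 the unadjusted P in limma stayed under 0.01 in all 3, and only the fold limit was missed. The cause of the smaller differences was not tested. The same 3 alternatives lost the calls of Dmc1, Dppa4, Dppa5a, Pou5f1, Kit and L3mbtl2. For Dppa5a, Kit and L3mbtl2 the unadjusted P in limma stayed under 0.01 there too, and only the fold limit was missed. Calls lost under other scalings are given with their genes. Leaving out each array in turn gave 0 to 1 called members on the ester diet, a Tex19.2 difference of 0.79 to 1.23, 2 to 6 germline list genes called on the inulin diet and 0 to 4 on LFD. Sycp3 differences near 0 changed sign: in liver on the inulin diet they were 0.01 (normexp), 0 (no background correction and deposited values) and 0.02 (cyclic loess over both tissues) and ran from -0.1 to 0.05 without single arrays, in liver on the ester diet from -0.09 to 0.01, and in cecum on the ester diet they were 0 (normexp) and -0.38 to 0.07. No member was called in liver under any alternative, where 8 of the 10 were not detected on any array. With 75th percentile scaling 3 of the 5 genes most like Tex19.1 remained among the first 5. Over all alternatives of the main values and counts, 653 stayed on the same side of the call or within the spread between replicates, 22 moved beyond it, 10 lost a call and 3, those just named, crossed the threshold. For the 7 members below background on all arrays, the signal over background limits what any setting can show. The replicate numbers were not taken as pairs. Same-numbered arrays were on average more alike in their deviations from the diet means (median r 0.143 in cecum and 0.205 in liver) than others (-0.0331 and -0.0694), but r passed 0.1 in 17 of 31 cecum and 26 of 36 liver pairs only, and 5 of 22 cecum and 8 of 24 liver arrays correlated best with their own number. Same-numbered arrays of a tissue lay on the same slide in liver and mostly did in cecum. The part of the slide in this likeness was not tested. With a replicate block Tex19.2 on the ester diet stood at 1.12, 1 member was called there as before, and it lost the L3mbtl2 call (-0.58) and the Sectm1a call on the inulin diet (0.73) and no other call.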
